A study of Mus musculus with 8 samples.

Results

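The comparison set neurosphere cells exposed to trichostatin A (TSA) alone against untreated neurosphere cells, on 4 of the 8 arrays of the series. Neurospheres are free-floating cultures of neural stem and progenitor cells. These came from the forebrains of mouse embryos at embryonic day 14.5, isolated one by one, and all embryos carried a bcl2 transgene, so every group compared here has it. The promoter of that transgene and its level were not given in the sources used here. Untreated cells received no compound; the TSA group received 150 nM TSA for 2 days. Within a group the 2 arrays came from separate, independently run experiments. The other 4 arrays, of cells given 500 nM 5-aza-2'-deoxycytidine (AzaC) with or without 150 nM TSA for 2 days, served as a second set in which TSA was added on other arrays of the same experiments. The values are the deposited signal of each probe set. Genes of cell division, neuronal genes and stress genes were set aside, and the account follows transcription factors, receptors, secreted proteins and metabolism.

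TSA is an inhibitor of histone deacetylases, the enzymes that remove acetyl groups from the tails of histones and from other proteins. Blocking them raises acetylation and changes the transcription of many genes in both directions. Neural progenitors divide in response to growth factors, rely on glycolysis and on their own lipid synthesis for growth, and secrete proteins that act on their neighbours. Lysosomes, which digest material delivered by endocytosis and autophagy, depend on acid hydrolases and on a proton pump that keeps their lumen acidic.

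The progenitor markers Sox2 (signals 3407.1 and 3750.7 untreated, 3474.0 and 2390.6 with TSA) and Nes (2376.2 and 2053.3 untreated, 1049.0 and 1949.6 with TSA) were bright on all 4 arrays, whereas Vim, on its brightest probe set, stayed between 21.3 and 56.0. Fabp7 (lowest signal 1062.9), Notch1 (488.7) and Hes1 (262.8) also lay above the array medians. Other markers of the list were dim. Hes5 ran from 12.4 to 37.1, Fut4 from 15.4 to 53.9, Msi1 from 10.3 to 78.0 and Sox1 from 14.1 to 79.1. Prom1 was at 13.8 and 4.2 untreated and 156.2 and 38.4 with TSA. Pax6 went from 91.7 and 154.1 to 39.2 and 42.6. Median signals per array ran from 59.2 to 67.2 over the 4 arrays. Control probe sets at the 5' and 3' ends of a transcript, whose ratio reflects RNA integrity, gave 0.332 to 0.427 for actin in untreated cells and 0.33 to 0.378 with TSA, and for Gapdh 0.867 to 0.904 and 0.808 to 0.848. The part of this difference in the results was not tested. Precision was limited by the number of arrays: log2 changes had a median standard error of 0.41 and a median 95% half-width of 0.93. In bulk RNA such as this, fewer cells of a type and less RNA per cell cannot be told apart.

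Of 7987 probe sets tested with limma, 401 (5.02%) passed an adjusted p of 0.05, with 167 higher (2.09%) and 234 lower (2.93%) after TSA. With the experiment as a block the calls were 971 (12.2%), 447 higher (5.6%) and 524 lower (6.56%). Taken as 1 probe set per gene, 1094 tested genes belonged to the 4 classes described here, and 39 of them rose and 34 fell (6.67%). On each of these 73 genes the signals of the TSA arrays and the untreated arrays did not overlap, and the change had the same sign in both experiments. The 73 were chosen by a threshold on these same arrays, which favours both properties, so neither is further support for a gene. This holds for every remark below on groups that do not overlap. Of all 7987 probe sets, 2678 were above 0 in both experiments and 2641 below 0 in both. The share of all probe sets without overlap is not given here. All 73 also passed with the experiment as a block, which gave 78 rises and 86 falls in the 4 classes. Without a single array of the comparison most of these calls were lost: of the 73, leaving out untreated 1 kept 17 and untreated 2 kept 11, and leaving out TSA 1 kept 18 and TSA 2 kept 10.

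The classes differed in how many of their members passed. Transcription factors (6 of 226, 2.65%) and receptors (4 of 159, 2.52%) lay below the share over all probe sets, secreted proteins (16 of 234, 6.84%) slightly above it, and metabolic genes (49 of 482, 10.2%) at the highest share of the 4. The share over all probe sets includes the set aside genes. Over the 5772 named genes outside the set aside lists, counted like the classes, 4.47% passed. The median log2 changes of the 4 classes were 0.06, 0.10, 0.33 and -0.11, beside 0.01 over all probe sets. Within metabolism the movement was split by pathway. Lysosomal genes had 12 rises and 0 falls, whereas sterol synthesis had 0 rises and 5 falls and the respiratory chain 0 rises and 6 falls. These differences between lists were not tested.

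**Figure D1:**
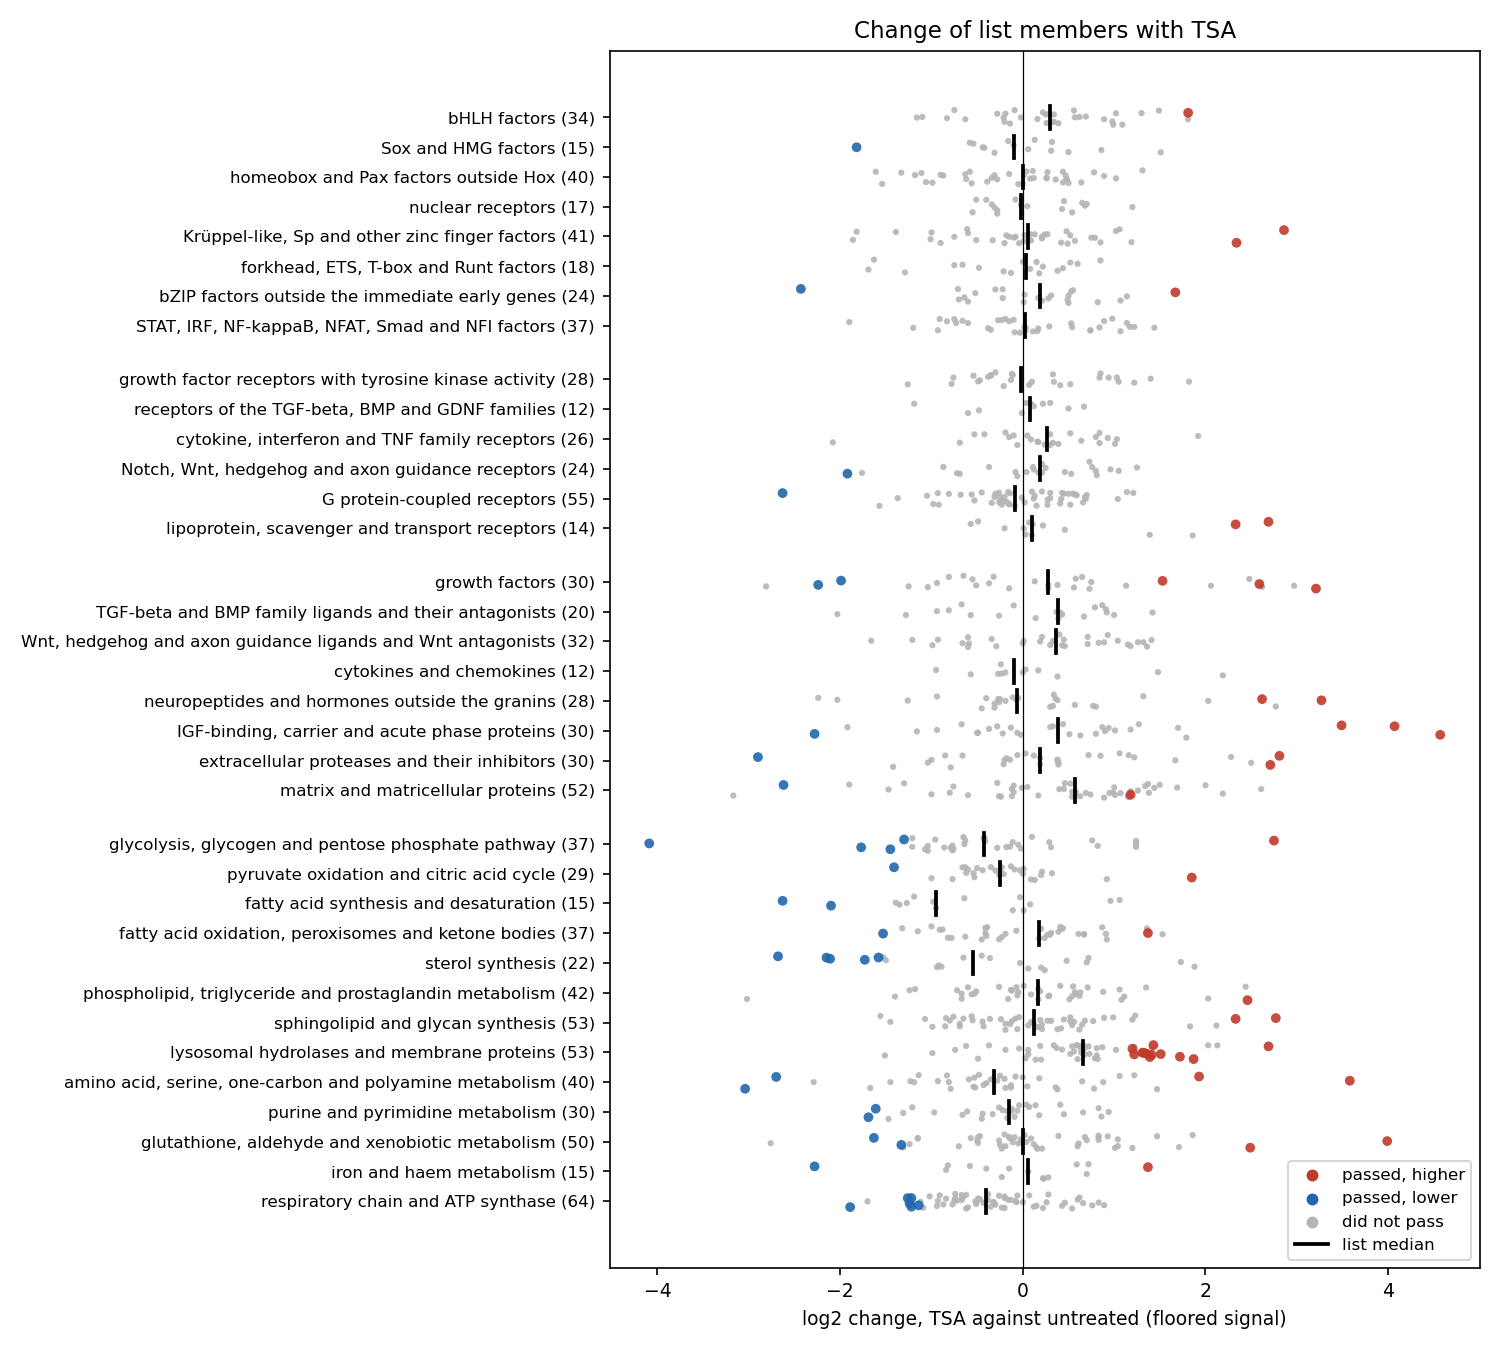
Log2 change with TSA against untreated (horizontal axis, floored signal) for every tested member of each list; points are genes, red passed higher, blue passed lower, grey did not pass, and the black bar is the list median. The 12 lysosomal genes that passed all lie to the right of 0, and the 5 of sterol synthesis and 6 of the respiratory chain all lie to the left.

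Among transcription factors 4 rose and 2 fell (8 and 12 with the experiment as a block). Klf5, a Krüppel-like zinc finger factor of proliferating epithelia and stem cells, had signals of 33.2 and 40.0 in untreated cells and 140.3 and 242.8 with TSA, a 5.06-fold rise (log2 change 2.34 ± 0.48 SE, adjusted p = 0.0302). Arntl (Bmal1), a core activator of the circadian clock, went from 109.1 and 123.4 to 356.4 and 464.8, a 3.51-fold rise (1.81 ± 0.30, adjusted p = 0.014). Cebpb, a basic leucine zipper factor of inflammation and metabolism, went from 109.1 and 81.0 to 274.7 and 323.9, a 3.17-fold rise (1.67 ± 0.32, adjusted p = 0.0248). In each of the 3 genes both TSA arrays lay above both untreated arrays, which the choice by threshold favours. Zfp36, listed with the zinc finger factors, encodes an RNA-binding protein that destabilises messenger RNA and is no transcription factor. It rose from 21.3 and 16.0 to 172.4 and 130.0, at least 7.25-fold (2.86 ± 0.46, adjusted p = 0.0133). The name of its probe set puts it in the family kind, where signal from similar genes is possible.

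Atf5, a basic leucine zipper factor that keeps neural progenitors from differentiating, had signals of 472.1 and 212.4 in untreated cells and 72.5 and 47.5 with TSA, a 5.4-fold fall (-2.43 ± 0.49, adjusted p = 0.0287). Hmgb3, a chromatin protein of the high mobility group that is abundant in embryonic and stem cells, went from 1195.3 and 1669.8 to 439.9 and 362.4, a 3.54-fold fall (-1.82 ± 0.28, adjusted p = 0.0114). Both genes were lower on each TSA array than on either untreated array. Homeobox and Pax factors had 0 of 40 past the threshold. With 5.02% of all probe sets called, counts of 0 in this and the following lists say little about their members. Some homeobox and Pax factors came near the threshold. The homeobox and Pax factors of smallest p were Zeb1, a repressor of epithelial genes (-1.18, unadjusted p = 0.00878, adjusted p = 0.0982), and Pax6, a forebrain progenitor factor (-1.54, adjusted p = 0.111), and both passed only with the experiment as a block. Nuclear receptors had 0 of 17, with Rxra (1.20, adjusted p = 0.184) the nearest. For forkhead, ETS, T-box and Runt factors the count was 0 of 18 (1 fall with the block), with Tbx2 (at least -1.63, adjusted p = 0.135) and Foxj1, a factor of ciliated cells (-1.69, adjusted p = 0.139). The STAT, IRF, NF-kappaB, NFAT, Smad and NFI factors had 0 of 37, with Bcl3 (at least -1.90, adjusted p = 0.0661) and Stat3 (0.84, adjusted p = 0.10) passing only with the block.

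Of 159 tested receptors 2 rose and 2 fell (7 and 2 with the block). Adgrg1, an adhesion receptor of neural progenitors coupled to G proteins, had signals of 998.7 and 1022.6 in untreated cells and 174.2 and 152.9 with TSA, a 6.19-fold fall (-2.63 ± 0.26, adjusted p = 0.00167). Smo, which transduces the hedgehog signal, went from 172.2 and 247.0 to 57.4 and 51.9, a 3.78-fold fall (-1.92 ± 0.40, adjusted p = 0.0309). Neither gene had a TSA array within the untreated range. The hedgehog receptor Ptch1, which restrains Smo and is itself induced by the pathway, gave 324.0 and 441.3 untreated and 513.7 and 323.7 with TSA (0.11 ± 0.46, adjusted p = 0.924), and its groups overlapped. Ramp3, an accessory protein of receptors for adrenomedullin, was under the floor in untreated cells with 17.4 and 13.0 and reached 101.8 and 100.1 with TSA, a rise of at least 5.04-fold (2.33 ± 0.46, adjusted p = 0.0254).

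Growth factor receptors with tyrosine kinase activity had 0 of 28 past the threshold. With 5.02% of all probe sets called, counts of 0 in this and the following lists say little about their members. Egfr and Fgfr1, receptors for growth factors usual in neurosphere medium, did not pass. Egfr went from 262.8 and 223.9 to 184.6 and 188.4 (-0.38 ± 0.28, adjusted p = 0.499), and Fgfr1 from 658.3 and 503.9 to 474.2 and 432.8 (-0.35 ± 0.26, adjusted p = 0.502). The nearest to the threshold were Erbb3, a receptor for neuregulin (at least 1.82, adjusted p = 0.0962), and Igf1r, the receptor for insulin-like growth factors (1.05, adjusted p = 0.136), of which Igf1r passed with the block. Receptors of the TGF-beta, BMP and GDNF families had 0 of 12, with Gfra1 at -1.19 (at least, adjusted p = 0.39) and Acvrl1 at -0.48 (adjusted p = 0.611). In the list of cytokine, interferon and TNF family receptors 0 of 26 passed, while Cd40 (1.92, adjusted p = 0.086) and Il6st, the shared signalling chain of the interleukin 6 family (1.03, adjusted p = 0.0885), passed with the block. The median of that list was 0.27, with 18 of 26 members above 0.

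Secreted proteins held the 2 largest rises of the 4 classes, with 11 rises and 5 falls among 234 (24 and 12 with the block). Clu, clusterin, an extracellular chaperone and apolipoprotein, had signals of 79.6 and 74.8 in untreated cells and 1638.2 and 2048.8 with TSA, a 23.7-fold rise (4.57 ± 0.28, adjusted p = 0.000219), and a second probe set gave 4.88. Lcn2, lipocalin 2, which binds bacterial siderophores and marks acute phase responses, was under the floor at 16.4 and 9.0 and reached 223.2 and 509.5, at least 16.9-fold (4.07 ± 0.57, adjusted p = 0.00726). Its second probe set gave -0.30 (adjusted p = 0.786), so the probe sets of this gene disagree. Rnase4, a secreted ribonuclease, went from 17.0 and 8.5 to 374.4 and 135.3, at least 11.2-fold (3.49 ± 0.54, adjusted p = 0.0117). Resp18, an endocrine protein of the secretory pathway, went from 34.8 and 39.3 to 344.7 and 370.3, a 9.66-fold rise (3.27 ± 0.40, adjusted p = 0.00392). Igf2, an imprinted growth factor of fetal tissues, went from 47.0 and 113.2 to 958.9 and 472.6, a 9.23-fold rise (3.21 ± 0.52, adjusted p = 0.0139), with a probe set of the family kind. In all 5 genes the lower TSA array was above the higher untreated array, which the choice by threshold favours.

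Promoter sequences are shown for Lcn2 and Resp18, which are among the 4 largest rises of these classes that matched an entry of the RefSeq promoter table (build GRCm38.p6) and which have a single listed start each. The lines give the 250 bases before the start, 5' to 3' in the direction of the gene, at chr2:32387740-32387989 (minus strand) for Lcn2 and chr1:75278416-75278665 (minus strand) for Resp18. Capitals mark matches on either strand to any of 5 motifs. They were the GC box with the letters GGGCGG, the E-box with the letters CANNTG, the CCAAT box, the cyclic AMP response element with the letters TGACGTCA, and the AP-1 site with the letters TGANTCA.
Lcn2: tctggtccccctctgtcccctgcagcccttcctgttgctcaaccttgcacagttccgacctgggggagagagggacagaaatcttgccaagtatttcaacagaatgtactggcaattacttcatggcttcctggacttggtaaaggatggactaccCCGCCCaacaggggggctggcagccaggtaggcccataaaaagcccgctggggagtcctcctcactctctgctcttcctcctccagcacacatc
Resp18: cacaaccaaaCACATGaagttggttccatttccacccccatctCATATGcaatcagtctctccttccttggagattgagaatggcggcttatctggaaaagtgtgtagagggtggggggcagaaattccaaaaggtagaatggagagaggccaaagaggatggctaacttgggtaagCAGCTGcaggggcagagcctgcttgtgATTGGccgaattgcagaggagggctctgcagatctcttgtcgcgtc
Lcn2 held 1 GC box and Resp18 3 E-boxes and 1 CCAAT box; the other motifs were not in these windows. Over all 32851 windows of this length, 32.7% held a GC box, 66.2% an E-box, 33.8% a CCAAT box, 1.55% the cyclic AMP response element and 6.75% an AP-1 site. Over the windows of tested genes the shares were 58.3%, 56.9%, 35.2%, 2.38% and 4.6%.

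The other rises among secreted proteins were smaller. Grn, progranulin, a growth factor that is also delivered to lysosomes, was bright before treatment, with 766.9 and 711.8, and reached 3846.5 and 5166.5, a 6.03-fold rise (2.59 ± 0.25, adjusted p = 0.00167), while a second probe set gave 0.77 and did not pass. Timp1, an inhibitor of matrix metalloproteinases, rose 7.0-fold (2.81 ± 0.44), and Serpini1, neuroserpin, an inhibitor of tissue plasminogen activator, at least 6.53-fold (2.71 ± 0.53). Nrtn, neurturin, a ligand of the GDNF family, rose 2.88-fold (1.53 ± 0.32) and Mfge8, a bridge between phagocytes and dying cells, 2.26-fold (1.18 ± 0.25). Sult4a1, which the list of neuropeptides holds, is a cytosolic sulfotransferase of neurons and not secreted. It rose at least 6.13-fold (2.62 ± 0.41). Neuron markers were read beside these genes. Of 15 on the array 12 were tested, 6 rose and 0 fell, beside 2.09% of all probe sets called higher. The summed signal of all 15 was 2982.6 to 3205.7 in untreated cells and 5595.6 to 5766.1 with TSA. Of the 12, 10 lay above 0 and 2 below. Tubb3, the brightest untreated, went from 1835.6 and 1958.9 to 1107.3 and 1057.0 (-0.81) and did not pass. Map2 (-0.27) and Dcx (0.39) did not pass either. The part of neurons in the rises of secreted proteins was not tested.

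The class was completed by 5 falls. Adam12, a membrane-bound and secreted metalloprotease, had signals of 812.3 and 526.2 in untreated cells and 69.7 and 110.8 with TSA, a 7.44-fold fall (-2.90 ± 0.51, adjusted p = 0.019). Bcan, brevican, a proteoglycan of brain matrix, went from 3623.4 and 2524.8 to 659.1 and 367.7, a 6.14-fold fall (-2.62 ± 0.46, adjusted p = 0.0173), and a second probe set gave -2.74. Cp, ceruloplasmin, a copper protein that oxidises iron, went from 371.2 and 257.5 to 50.3 and 80.6, a 4.86-fold fall (-2.28 ± 0.45, adjusted p = 0.0254). Each of the 3 was lower on both TSA arrays than on either untreated array. Both vascular growth factors that passed were lower too. Angpt2, a ligand of the endothelial receptor Tie2, went from 737.6 and 887.2 to 143.1 and 206.3, a 4.71-fold fall (-2.24 ± 0.48, adjusted p = 0.0346), and Vegfb, of the vascular endothelial growth factor family, from 403.1 and 384.3 to 91.9 and 106.5, a 3.98-fold fall (-1.99 ± 0.31, adjusted p = 0.0124).

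Ligands of the developmental pathways that were kept here did not pass. With 5.02% of all probe sets called, counts of 0 in lists this small say little about their members. Of the TGF-beta and BMP ligands and antagonists 0 of 20 passed with or without the block, and the nearest were Bmp7 (-2.03, adjusted p = 0.184) and Tgfb3 (at least 1.42, adjusted p = 0.254). The Wnt, hedgehog and axon guidance ligands had 0 of 32, and with the block 2 rose and 1 fell. Reln, reelin, which is in this list but was set aside with the neuronal genes, rose (2.81, adjusted p = 0.0491). Those that passed with the block included Ntn1, netrin 1, a guidance cue (-1.66, adjusted p = 0.0766), and Efna3, an ephrin (0.93, adjusted p = 0.0773). For cytokines and chemokines 0 of 12 passed, with Cx3cl1 (1.48, adjusted p = 0.134) and Ccl2 (at least 2.19, adjusted p = 0.21) the nearest. Matrix proteins had 1 rise (Mfge8) and 1 fall (Bcan) of 52, with a median of 0.57 and 35 members above 0. With the block 6 of them rose and 4 fell, beside 5.6% and 6.56% of all probe sets. Among them were Col11a1 (2.61, adjusted p = 0.137), Lamb2 (2.19, adjusted p = 0.162) and Sparcl1 (-3.17, adjusted p = 0.10).

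**Figure D2:**
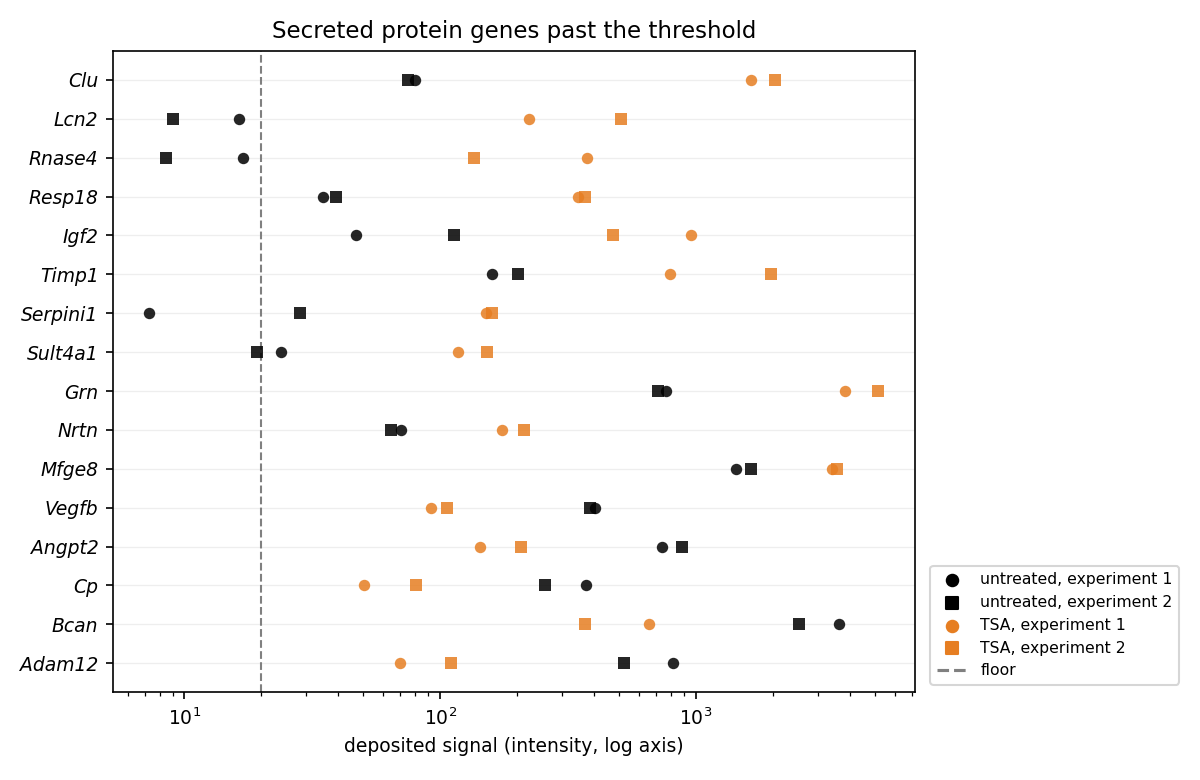
Deposited signal (horizontal log axis) of the 16 genes of secreted proteins past the threshold on each of the 4 arrays; black is untreated, orange is TSA, circles are experiment 1, squares are experiment 2, and the dashed line is the floor. The untreated signals of Lcn2 and Rnase4 lie under the floor. In no gene do the colours overlap, which the choice by threshold favours.

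Lysosomal genes had rises and no falls among those that passed. Of 53 tested genes of lysosomal hydrolases and membrane proteins, 12 rose and 0 fell (22.6% called, against 2.09% of all probe sets called higher), the median log2 change was 0.66, and 45 of 53 lay above 0 and 8 below it. The median was above 0 in both experiments, at 0.61 and 0.74, and 38 members were above 0 in both and 5 below 0 in both. With the block 18 rose (5.6% of all probe sets did) and 0 fell. Quantile normalization and median centring gave medians of 0.67 and 0.71.

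Ctsd, cathepsin D, the main aspartic protease of lysosomes, had signals of 2128.4 and 2054.4 in untreated cells and 7751.4 and 7562.2 with TSA, a 3.66-fold rise (1.87 ± 0.23, adjusted p = 0.00392). Ctsb, a cysteine cathepsin, went from 1384.0 and 1284.2 to 3234.9 and 3586.7 (1.35 ± 0.24, adjusted p = 0.019), with 2 further probe sets at 1.24 and 1.88 that also passed. Ctsl, another cysteine cathepsin, went from 1153.6 and 838.1 to 2441.3 and 2713.1 (1.39 ± 0.28, adjusted p = 0.0292). These were bright genes whose groups did not overlap, which the choice by threshold favours. Ctsa, which protects lysosomal sialidase and galactosidase (1.20 ± 0.25), and the asparaginyl protease Lgmn (1.43 ± 0.26) also rose, which made 5 of the 11 tested cathepsins and legumain. Of 12 subunits of the proton pump 3 rose, Atp6v1c1 (1.51 ± 0.29, a probe set of the family kind), Atp6v0d1 (1.41 ± 0.26) and Atp6v1b2 (1.33 ± 0.24), and 11 of the 12 lay above 0. Among other hydrolases Arsa, which degrades sulfatide (1.72 ± 0.39), Gaa, which degrades glycogen (1.31 ± 0.24), and Fuca1, which removes fucose (1.22 ± 0.29), rose. Second probe sets of Gaa (-0.79, adjusted p = 0.561) and Atp6v1b2 (0.89, adjusted p = 0.266) did not pass, and both genes lost their call with probe sets averaged. Fuca1 lost its call under quantile normalization and passed in 8 of 21 alternatives.

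Cd68, a heavily glycosylated protein of late endosomes and lysosomes, went from 39.4 and 53.0 to 203.3 and 425.2, a 6.43-fold rise (2.69 ± 0.56, adjusted p = 0.0314), with a probe set of the family kind. It is also a widely used marker of macrophages. Of 12 markers of microglia and macrophages on the array 3 were tested and Cd68 alone rose, while Csf1r (-0.49, adjusted p = 0.756) and Cx3cr1 (-0.26, adjusted p = 0.916) did not pass. The summed signal of all 12 was 252.4 to 456.6 in untreated cells and 460.0 to 689.6 with TSA, and without Cd68 it was 199.4 to 417.2 and 256.7 to 264.4. Ptprc, Itgam, Aif1 and Tyrobp were under the floor on all 4 arrays, Laptm5 ran from 19.1 to 58.8, and Lyz2 went from 1.2 and 2.1 to 8.7 and 28.1. The part of such cells in the rise of Cd68 was not tested. Lamp1, a structural protein of the lysosomal membrane, went from 6941.6 and 6539.0 to 12156.7 and 11092.6 (0.79 ± 0.27, adjusted p = 0.146) and passed with the block only.

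**Figure D3:**
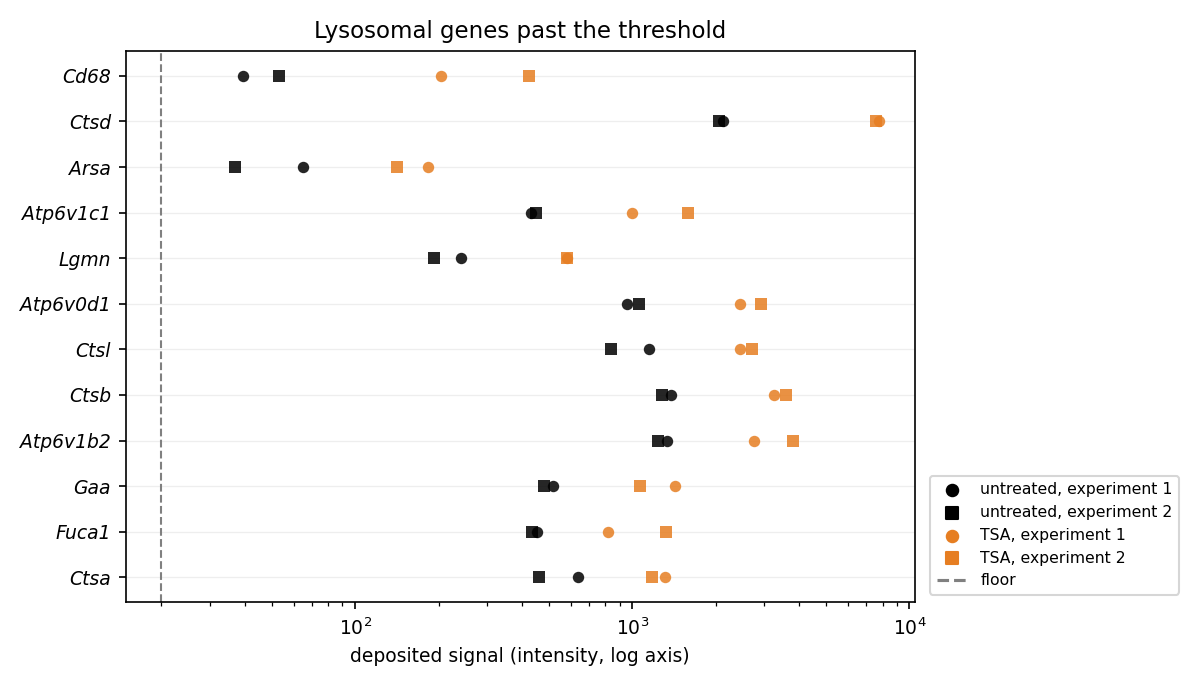
Deposited signal (horizontal log axis) of the 12 lysosomal genes past the threshold on each of the 4 arrays; black is untreated, orange is TSA, circles are experiment 1, squares are experiment 2, and the dashed line is the floor. Both TSA arrays lie to the right of both untreated arrays in each gene, which the choice by threshold favours.

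Promoters of some of these genes are shown because many genes of lysosomal proteins carry the palindrome CACGTG. It is the core of the element bound by TFEB and related factors. Every promoter printed below holds it, so they do not represent the rises as a whole. The search for CACGTG, a form of the E-box, and the choice of genes were made after the values had been seen. Of the 12 lysosomal genes that rose, 9 matched an entry of the promoter table, and 6 of the 9 held CACGTG in the 250 bases before a listed start. Atp6v0d1, Cd68 and Fuca1 matched and did not hold it. Of the 41 that did not pass, 35 matched and 7 held it. Over all tested genes with an entry 528 of 4868 held it (10.8%), and over all windows 6.02% did. Among the members of the 4 classes with an entry, 8 of 33 that rose and 1 of 30 that fell held it. The 33 include the 9 lysosomal genes above, which supply 6 of the 8, so this count is no separate observation. The lines give 250 bases before the start for Ctsd (chr7:142387828-142388077, minus strand), Dpp7 (chr2:25356333-25356582, minus strand), Arsa (chr15:89477425-89477674, minus strand) and Gaa (chr11:119267713-119267962, plus strand), from RefSeq in build GRCm38.p6, with CACGTG in capitals. Dpp7, a lysosomal dipeptidyl peptidase, was in no list and was chosen among the largest other rises, from 189.6 and 163.6 to 1692.5 and 1358.8 (3.11 ± 0.34, adjusted p = 0.00236).
Ctsd: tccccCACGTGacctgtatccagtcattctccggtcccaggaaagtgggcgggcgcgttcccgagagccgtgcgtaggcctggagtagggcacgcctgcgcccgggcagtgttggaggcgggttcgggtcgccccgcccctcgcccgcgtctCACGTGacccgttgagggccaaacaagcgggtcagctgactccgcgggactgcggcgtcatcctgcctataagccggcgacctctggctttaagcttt
Dpp7: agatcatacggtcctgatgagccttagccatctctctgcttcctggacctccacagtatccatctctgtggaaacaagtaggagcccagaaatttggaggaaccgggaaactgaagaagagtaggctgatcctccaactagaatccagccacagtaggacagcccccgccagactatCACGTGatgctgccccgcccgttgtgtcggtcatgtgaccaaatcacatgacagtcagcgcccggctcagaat
Arsa: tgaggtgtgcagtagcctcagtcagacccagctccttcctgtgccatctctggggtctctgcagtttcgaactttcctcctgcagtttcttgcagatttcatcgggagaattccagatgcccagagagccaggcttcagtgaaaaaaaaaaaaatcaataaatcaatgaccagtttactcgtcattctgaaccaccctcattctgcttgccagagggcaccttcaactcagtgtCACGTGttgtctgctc
Gaa: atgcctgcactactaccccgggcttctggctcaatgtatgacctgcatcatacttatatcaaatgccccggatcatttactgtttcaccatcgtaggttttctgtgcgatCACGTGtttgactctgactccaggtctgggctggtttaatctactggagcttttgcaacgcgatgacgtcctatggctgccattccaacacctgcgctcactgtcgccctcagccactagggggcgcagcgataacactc
Ctsd held 2 copies, 245 and 98 bases before the start, and the others 1 copy each, 73 bases (Dpp7), 16 bases (Arsa) and 140 bases (Gaa) before it. A match is a description of the sequence, and binding was not measured.

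Genes of energy metabolism lay mostly below 0. In the list of glycolysis, glycogen and the pentose phosphate pathway 1 of 37 rose and 4 fell (1 and 8 with the block), beside 2.93% called lower over all probe sets (6.56% with the block), with a median of -0.43. Pygm, muscle glycogen phosphorylase, which releases glucose from glycogen, had signals of 772.4 and 175.9 in untreated cells and 3.0 and 23.4 with TSA, a fall of at least 17.0-fold (-4.09 ± 0.81, adjusted p = 0.0262). Its untreated arrays differed widely from each other, and both lay above the TSA range. Ldha, lactate dehydrogenase A, went from 5550.6 and 6464.3 to 1204.2 and 2548.9, a 3.42-fold fall (-1.77 ± 0.34, adjusted p = 0.0254). Tkt, transketolase of the pentose phosphate pathway (-1.45 ± 0.24), and Gys1, glycogen synthase (-1.30 ± 0.27), fell as well. Pfkp, the platelet form of phosphofructokinase, was the exception, from 19.7 and 3.9 to 136.4 and 132.6, a rise of at least 6.72-fold (2.75 ± 0.46, adjusted p = 0.0146), with a second probe set at 2.66 that also passed.

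In the list of pyruvate oxidation and the citric acid cycle 1 of 29 rose and 1 fell (2 and 2 with the block), with a median of -0.25. As 2.09% of all probe sets rose and 2.93% fell (5.6% and 6.56% with the block), these counts say little about the list. Pdk3, a kinase that switches off pyruvate dehydrogenase, went from 340.4 and 424.0 to 1354.1 and 1389.4, a 3.61-fold rise (1.85 ± 0.24, adjusted p = 0.00566), and Suclg2, a subunit of succinyl-CoA ligase, fell (-1.41 ± 0.30). Of 64 genes of the respiratory chain and ATP synthase 0 rose and 6 fell (0 and 15 with the block; 2.93% and 6.56% of all probe sets fell), the median was -0.41 and 49 lay below 0. The falls were Uqcrb of complex III (-1.89 ± 0.32, family kind), the electron carrier Cycs (-1.26 ± 0.30), the ATP synthase subunits Atp5o (-1.24 ± 0.26) and Atp5e (-1.22 ± 0.26, family kind), and Ndufs3 (-1.22 ± 0.27) and Ndufb8 (-1.14 ± 0.25) of complex I. By complex, 2 of 26 subunits of complex I, 1 of 8 of complex III, 0 of 12 of complex IV and 2 of 12 of ATP synthase fell, and with the block 6, 2, 0 and 5. Cycs lost its call under quantile normalization and under median centring and passed in 8 of 21 alternatives. Median changes of the list were -0.60 in experiment 1 and -0.26 in experiment 2.

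**Figure D4:**
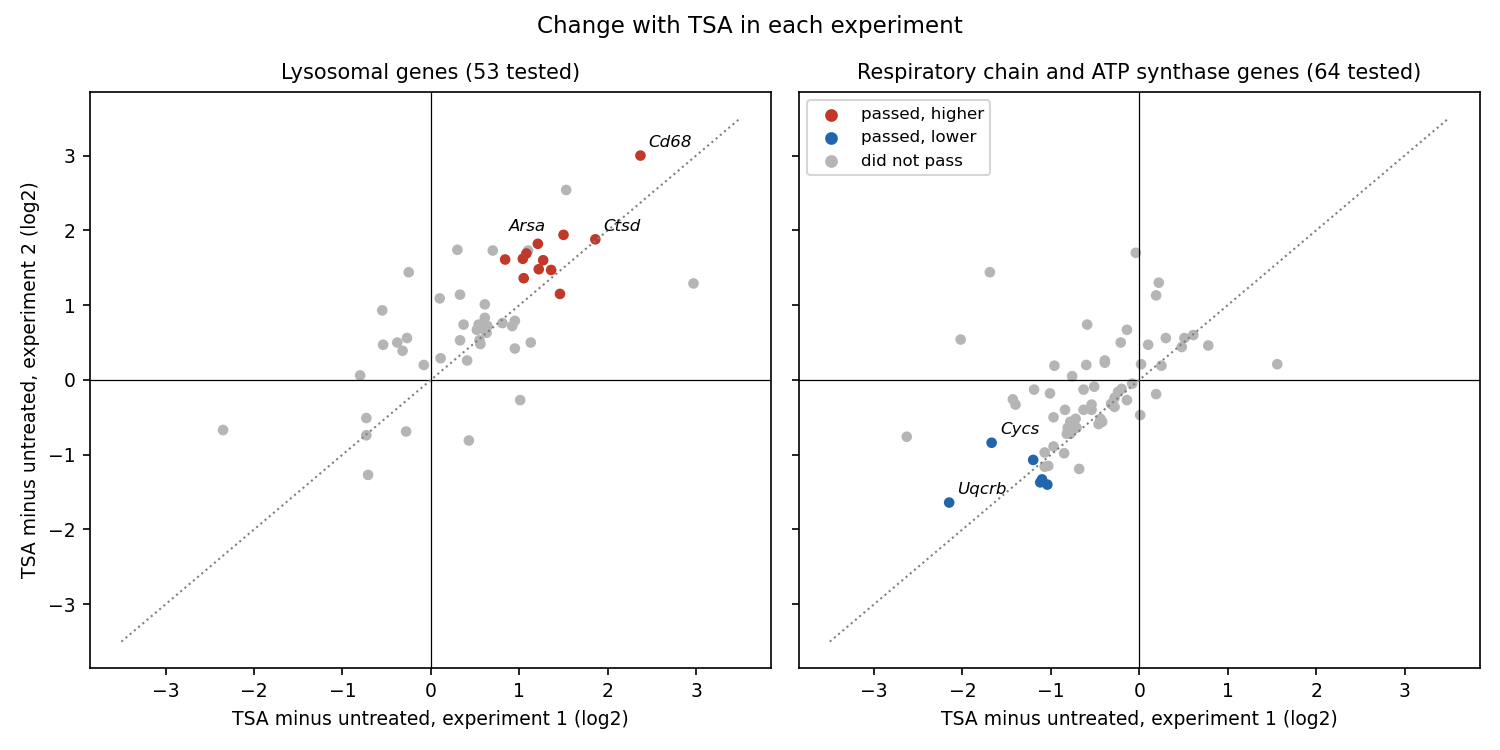
TSA minus untreated on the log2 scale in experiment 1 (horizontal axis) and experiment 2 (vertical axis) for 53 lysosomal genes (left) and 64 genes of the respiratory chain and ATP synthase (right); red passed higher, blue passed lower, grey did not pass, and the dotted line marks equal change. Of the lysosomal genes 38 lie above 0 in both experiments, and of the respiratory genes 40 lie below 0 in both.

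Lipid metabolism had falls in synthesis and carriage. Of 22 sterol synthesis genes 0 rose and 5 fell (2 and 7 with the block; 2.93% and 6.56% of all probe sets fell), and the median was -0.55. Idi1, which isomerises the isoprenoid building block, had signals of 1886.5 and 2179.8 in untreated cells and 293.8 and 340.9 with TSA, a 6.41-fold fall (-2.68 ± 0.27, adjusted p = 0.00186). Cyp51, Lss, Hmgcs1 and Nsdhl, enzymes before and after lanosterol, fell as well (-2.15, -2.11, -1.73 and -1.58). Nsdhl was measured with a probe set of the family kind. Another of its probe sets passed (-1.75) and a further one did not (-0.97, adjusted p = 0.184). Fdps (-1.53, adjusted p = 0.0576) and Sqle (-0.92, adjusted p = 0.055) passed with the block only. In the list of fatty acid synthesis and desaturation 2 of 15 fell (1 rose and 4 fell with the block), and both are carriers and not enzymes. Fabp7, the fatty acid binding protein of radial glia, went from 9310.0 and 10920.1 to 2496.9 and 1062.9, a 6.19-fold fall (-2.63 ± 0.43, adjusted p = 0.0133), and Fabp5, its epidermal relative, from 1060.9 and 993.2 to 226.5 and 253.0, a 4.29-fold fall (-2.10 ± 0.31, adjusted p = 0.00908). The synthase Fasn (-0.64, adjusted p = 0.246) and the desaturase Scd2 (-0.11, adjusted p = 0.865) did not pass. Fabp7 also marks progenitors. Their 12 markers summed to 16302.4 to 17851.9 in untreated cells and 6459.8 to 8671.9 with TSA, and without Fabp7 to 6931.8 to 6992.4 and 5396.9 to 6175.0.

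For fatty acid oxidation 1 of 37 rose and 1 fell (2 and 4 with the block). The shares over all probe sets were 2.09% higher and 2.93% lower (5.6% and 6.56% with the block). Counts this small, here and in the other lists of this paragraph, say little about the lists. Cpt1a, which loads fatty acids for entry into mitochondria, rose 2.58-fold (1.37 ± 0.30, adjusted p = 0.0357), and Eci1, an enoyl-CoA isomerase, fell (-1.53 ± 0.36, adjusted p = 0.0455), a call lost under quantile normalization. Of 53 genes of sphingolipid and glycan synthesis 2 rose and 0 fell (6 and 3 with the block). St3gal5, which makes the ganglioside GM3, went from 37.1 and 15.5 to 180.3 and 191.0, at least 6.81-fold (2.77 ± 0.63, adjusted p = 0.0398, family kind), and Chst3, a chondroitin sulfotransferase, from 22.8 and 18.3 to 105.6 and 109.2, at least 5.03-fold (2.33 ± 0.49, adjusted p = 0.0336). In the list of phospholipids 1 of 42 rose and 0 fell (3 and 2 with the block). The rise was Pld3, a lysosomal exonuclease of the phospholipase D family, from 182.6 and 158.3 to 987.2 and 884.5, a 5.5-fold rise (2.46 ± 0.25, adjusted p = 0.00186).

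Amino acid, one-carbon and polyamine metabolism had 2 rises and 2 falls of 40 (4 and 7 with the block). For this list and the next, the shares over all probe sets were 2.09% higher and 2.93% lower (5.6% and 6.56% with the block). Sat1, which acetylates spermidine and spermine and so starts their breakdown, had signals of 387.0 and 139.4 in untreated cells and 2708.7 and 2829.4 with TSA, an 11.9-fold rise (3.58 ± 0.46, adjusted p = 0.00531). Ass1, argininosuccinate synthase, rose 3.81-fold from a dim level (1.93 ± 0.44). Ahcy, which clears the product of methylation reactions, went from 700.6 and 1429.3 to 151.2 and 97.5, an 8.24-fold fall (-3.04 ± 0.48, adjusted p = 0.0124). It was measured with a probe set of the family kind, and of its other probe sets 1 passed (-2.53) and 1 did not (-1.30). Mthfd2, a mitochondrial folate enzyme of dividing cells, went from 853.6 and 605.4 to 76.3 and 159.7, a 6.51-fold fall (-2.70 ± 0.51, adjusted p = 0.0224). In nucleotide metabolism Cad, which starts pyrimidine synthesis (-1.61 ± 0.36), and the adenylate kinase Ak1 (-1.69 ± 0.36) fell and 0 of 30 rose (5 falls and 0 rises with the block). Rrm1 (-2.85), Rrm2 (-3.36) and Tk1 (-3.04) of that list also fell but were set aside with cell division. Beside these falls, 57 of 140 tested genes of cell division and DNA replication fell and 0 rose, against 2.93% of all probe sets called lower. Their median was -1.58. The part of that shift in the metabolic falls was not tested.

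Detoxifying enzymes had 2 rises and 2 falls of 50 (3 and 3 with the block), with a median of 0.0. Of all probe sets 2.09% rose and 2.93% fell (5.6% and 6.56% with the block), so these counts say little about the list. Gclc, of glutathione synthesis, also rose but was set aside with the stress genes. Akr1b8, an aldose reductase relative that reduces aldehydes, had signals of 97.5 and 21.1 in untreated cells and 511.3 and 1019.4 with TSA, a 15.9-fold rise (3.99 ± 0.70, adjusted p = 0.0175). Gstp1, a glutathione transferase, went from 1607.0 and 1476.0 to 5951.2 and 12626.6, a 5.63-fold rise (2.49 ± 0.48, adjusted p = 0.0246). The TSA arrays of both genes differed from each other by more than those of Ctsd or Pdk3. The peroxide-reducing proteins Prdx2 (-1.63 ± 0.22, adjusted p = 0.00719, family kind, with a second probe set at -0.74 that did not pass) and Txn1, thioredoxin (-1.33 ± 0.28, adjusted p = 0.031), fell. In iron and haem metabolism Uros, an enzyme of haem synthesis, rose 2.59-fold (1.37 ± 0.32, adjusted p = 0.0423), and Cp, given above, fell.

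The arrays with AzaC, none of which enters the TSA and untreated means, gave a second reading of TSA. They come from the same experiments and share the spread estimated in the fit, so the 2 readings are not fully independent. The 5' to 3' ratios were 0.398 to 0.471 for actin with AzaC and 0.29 to 0.39 with AzaC/TSA. For Gapdh they were 0.993 to 1.043 and 0.738 to 0.982. The part of this difference in the second reading was not tested. There, 223 of 7987 probe sets (2.79%) passed for AzaC/TSA against AzaC. Of the 39 class members that rose with TSA alone, 38 had a positive change on these arrays, 21 of them past the threshold, with a median of 1.67 against 2.33 for TSA alone. Of the 34 that fell, all 34 had a negative change, 11 past the threshold, with a median of -1.37 against -1.86. Over all called probe sets, 163 of 167 rises and 232 of 234 falls kept their sign, and 67 and 117 passed in that direction. The shared sign was thus not particular to the 4 classes. The genes were chosen by their TSA change, so the smaller values are a description. Igf2 went from 29.9 and 25.9 with AzaC to 651.7 and 354.6 with AzaC/TSA (4.11 ± 0.52, adjusted p = 0.00584), Clu gave 3.63 and Ctsd 2.05. All 12 lysosomal genes that rose were positive here and 7 passed, and over all 53 tested the median was 0.76 with 43 above 0, beside a median of -0.06 over all probe sets. The exception among the rises was Chst3, from 55.7 and 93.8 with AzaC to 40.9 and 76.6 with AzaC/TSA (-0.37, adjusted p = 0.751).

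The AzaC by TSA interaction, which tests whether the TSA change differed with AzaC present, passed for 0 of the 73 genes and 0 of 7987 probe sets with limma, with a smallest adjusted p of 0.29. At an unadjusted p under 0.05 there were 8 of the 73 genes and 142 of all probe sets (1.78%). The interaction contains the TSA change by which the 73 were chosen, which favours small p-values, so these counts are not comparable. Among all called probe sets it was 10 of 167 rises and 19 of 234 falls. Angpt2 was 1 of the falls with a small change on the AzaC arrays, from 563.3 and 531.3 to 257.0 and 821.3 (-0.25, adjusted p = 0.833), where the groups overlapped.

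**Figure D5:**
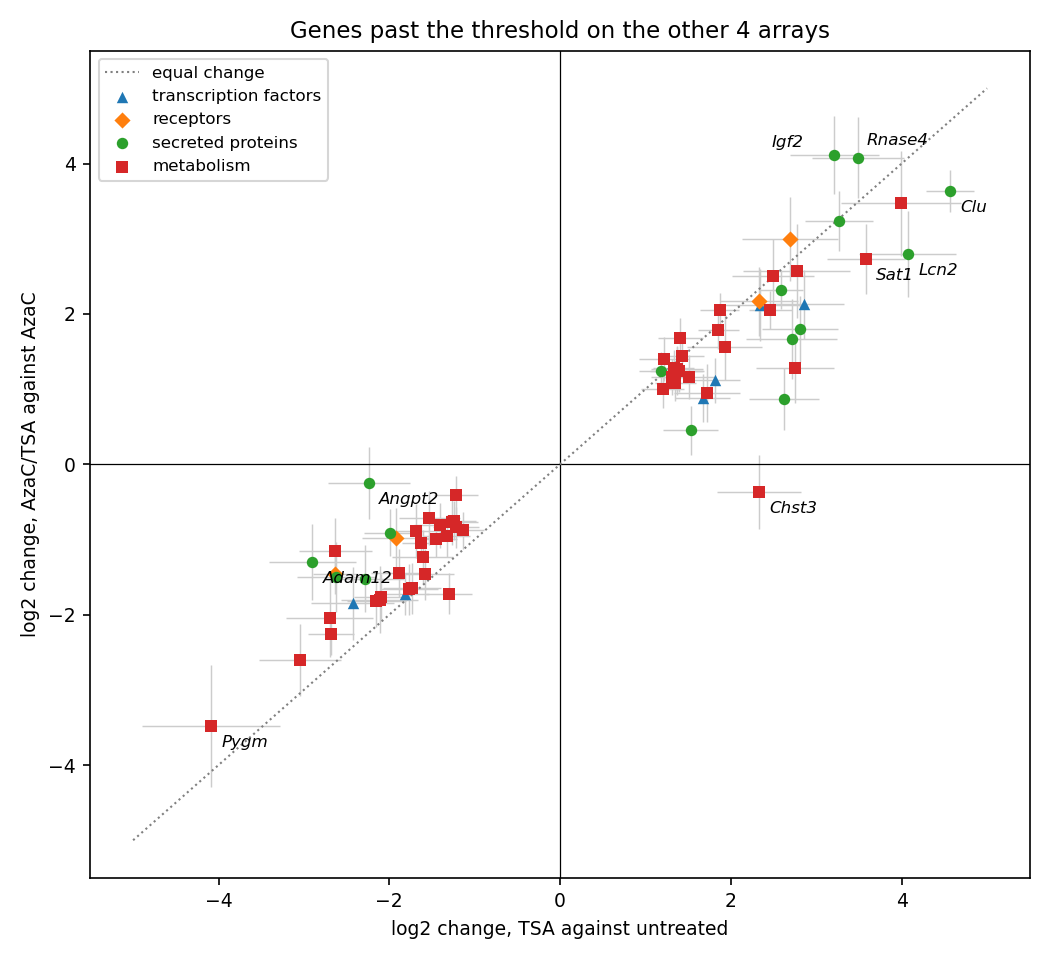
Log2 change of the 73 class members past the threshold for TSA against untreated (horizontal axis) and for AzaC/TSA against AzaC on the other 4 arrays (vertical axis); markers give the class, bars are 1 standard error, and the dotted line marks equal change. All but Chst3 have the same sign on both axes.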

How the data were processed

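Total RNA of neurosphere cells was hybridised to 8 arrays of short oligonucleotides, 2 per group. What the authors deposited is linear intensity for each probe set, and it shows that the authors had scaled every array to a 2% trimmed mean of 200.1; the software is not given in the sources used here. Of 12488 probe sets, 66 controls were left out. Signals under 20 (10% of the trimmed mean) were raised to that floor before the log2 transform, and a change whose lower group has an array under the floor is given as "at least". Probe sets with a signal of 50 or more on at least 2 of 8 arrays (7987) entered a linear model in limma 3.58.1 (R 4.3.3; eBayes with an intensity trend, 1 mean per group, 8 arrays), two-sided, with Benjamini-Hochberg adjustment over all 7987 and a threshold of 0.05. A limma fit of the same form was also run on simulated data, and its outcome is not given here. Genes are represented by the probe set with the highest mean over 8 arrays. Probe sets of the family kind are those whose names carry the letter f, r, s, g or i before the ending. Not all of these letters mark a gene family or cross-hybridisation.

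The members and lists were chosen with earlier results of these data known. Class members that passed and had the same sign in the 2 experiments could be named, the 5 largest rises and falls of each class with all signals; of lists with none, up to 2 of smallest p; outside all lists, the 15 largest each way. Arrays with the same number share an experiment per the labels, and their deviations from the group means correlated in all 6 pairs of groups, with r between 0.203 and 0.411 (0.224 for TSA and untreated), so the fit with the experiment as a block is given beside the lists whose counts it changes. Nothing says that experiments used the same embryos, and p-values measure the spread between these arrays. Alternatives changed normalization, floor, filter, trend, arrays and probe set averaging. Promoter sequences are RefSeq's, GRCm38.p6; 4868 of 6011 tested genes matched.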

Additional observations from a re-analysis of the deposited data

How the results depend on the processing

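Of the 73 class members past the threshold, 7 passed in all 21 alternatives (Clu, Resp18, Grn, Adgrg1, Ctsd, Pld3 and Idi1) and none changed sign. Quantile normalization, median centring, other floors, an offset, a filter at 50% of the trimmed mean, robust eBayes or averaging probe sets kept 69 to 73 of them. Quantile normalization lost Cycs, Fuca1 and Eci1, median centring Cycs, the lower floor Fuca1, St3gal5 and Klf5, the higher floor Pygm and Chst3, the offset St3gal5, the 50% filter Lss, Chst3 and Ramp3, and averaging Prdx2, Atp6v1b2, Gaa and Lcn2. Counts are given for all probe sets, then, where they moved by over 1.5 times, for transcription factors, receptors, secreted proteins, metabolism and the 32 of these 73 genes that passed for AzaC/TSA against AzaC. Without the filter they were 135, with 2 transcription factors, 6 secreted proteins, 11 metabolic genes and 11 of the 73. Without the intensity trend they were 216, with 19 metabolic genes and 14 of the 73. On the TSA and untreated arrays alone they were 171, with 3 transcription factors, 1 receptor and 18 metabolic genes. With the replicate block they were 971, with 20, 9, 36 and 102 for the classes and 57 of the 73, and with the block on those 4 arrays 737, with 14 transcription factors, 35 secreted proteins and 85 metabolic genes. The block included all 73 calls. Leaving out 1 array at a time gave 56 to 367 probe sets, 0 to 7 transcription factors, 1 to 5 receptors, 4 to 19 secreted proteins, 4 to 44 metabolic genes and 7 to 24 of the 73. The cause was not tested, except that each such fit leaves a group with 1 array, assumed to vary like the others. The interaction passed for 0 of the 73 in every alternative run, and over all probe sets for 11 without the filter and 1 without the trend. Acvrl1, which did not pass, changed from -0.48 to 0.6 with probe sets averaged and ranged from -1.01 to 0.04 without single arrays. Signals near the floor limit what can be said of dim genes.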

Other observations

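Outside all lists, 76 of 4678 named genes rose and 109 fell (3.95%). The largest rise was Anxa2, annexin A2, which binds membranes and actin, with signals of 129.1 and 10.4 in untreated cells and 807.9 and 1800.5 with TSA (at least 4.57 ± 0.87, adjusted p = 0.0238). Caprin2, an RNA granule protein, went from 116.4 and 119.0 to 970.1 and 1872.1 (3.52 ± 0.41, adjusted p = 0.00292), and Csrp2, a LIM protein of the cytoskeleton, from 68.2 and 125.9 to 695.6 and 1010.3 (3.18 ± 0.48, adjusted p = 0.0112). Adhesion and membrane genes followed, with the integrin subunit Itgb5 (3.16, with a second probe set at 0.25 that did not pass), the platelet receptor subunit Gp1bb (at least 2.72) and the desmosomal protein Pkp2 (2.73). Genes of neurons that the set aside lists do not hold were among the 15 largest rises, namely Ngef (at least 3.01), Hpca, hippocalcin (at least 2.74), and Dnm1, dynamin of synaptic endocytosis (2.46). Tec, a tyrosine kinase (at least 3.02), Tgoln1 of the trans-Golgi network (2.22), Ly6h (2.14), Reg2 (at least 2.57), Dpp7 (3.11) and Cd4 completed them. Further probe sets of Tgoln1 (1.58, 1.76 and 1.32) did not pass. The probe sets of Pkp2, Dnm1 and Reg2 were of the family kind.

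Among the 15 largest falls outside the lists were further genes of cell division, such as Pimreg (at least -4.09 ± 0.54, adjusted p = 0.00598), Dtl, which degrades replication proteins (at least -3.63), the spindle proteins Nusap1 (at least -3.45), Aspm (at least -2.93) and Spdl1 (-2.72), and the centromere proteins Pmf1 (at least -3.32), Cenpk (-2.75) and Cdca8 (-2.70). Cip2a, an inhibitor of the phosphatase PP2A (at least -3.43), Vrk1 (at least -2.76), Psmc3ip (at least -2.74), D17H6S56E-5 (at least -3.13), 2700099C18Rik (at least -2.91), Repin1 (-2.85) and Ap4s1, a subunit of an adaptor of Golgi vesicles (-2.89 ± 0.31, adjusted p = 0.00219), were the others. Nusap1 was measured with a probe set of the family kind, and its second probe set (-1.28, adjusted p = 0.209) did not pass.

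Genes of autophagy, picked by symbol after the values had been seen and so given as a description, lay above 0 in 18 of 21 tested, with a median of 0.86; 4 rose and 0 fell (8 and 0 with the experiment as a block), beside 2.09% of all probe sets called higher (5.6% with the block). Atg12, a ubiquitin-like protein of the autophagosome, went from 286.7 and 391.5 to 1235.8 and 1505.3 (2.03 ± 0.31, adjusted p = 0.0119). Uvrag (1.74), Map1lc3b (1.52) and Gabarapl2 (1.41) were the other rises. Sqstm1, which delivers cargo to autophagosomes, went from 1453.7 and 1252.1 to 2354.0 and 4607.3 (1.29 ± 0.45, adjusted p = 0.147) and passed with the block only.

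Cd4, a coreceptor of T cells, was at 18.1 and 20.2 in untreated cells, 96.9 and 143.3 with TSA, 107.8 and 93.1 with AzaC, and 18.9 and 14.5 with AzaC/TSA. Its change was at least 2.55 with TSA alone (adjusted p = 0.0195) and at least -2.32 with TSA added to AzaC (adjusted p = 0.0353), and the interaction, which rests on floored values (-4.87 ± 0.65, unadjusted p = 3.63e-05) had an adjusted p of 0.29 and did not pass. Reg2 (at least 2.57 and at least -1.06), Ciapin1 (at least 2.13 and -0.43), Repin1 (-2.85 and 0.11, second probe set 0.20 for TSA alone) and Dynlrb1 (-1.12 and 0.07) also had opposite signs in the 2 comparisons, each with an interaction adjusted p of 1.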
